A study of Rattus norvegicus with 48 samples.

Results

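The core autophagy genes described here were 10 genes of the machinery that builds the autophagosome, namely Atg13, Becn1, Ambra1, Atg9a, Atg7, Atg12, Atg5, Atg16l1, Atg3 and Atg4b. They were chosen by symbol and not by their values, although earlier results of these data were known at the time. All 10 had an Ensembl identifier, and all 10 were among the 13050 of 32624 listed features that had at least 1 read in each sample and were tested. RNA was sequenced in cerebral endothelial cells (CECs), the cells that line brain capillaries and form the blood-brain barrier, from the cortex of male Wistar-Han rats. The rats were fed ad libitum (AL rats) or had food withdrawn, with water left free, over 1 day (F1 rats), 2 days (F2 rats) or 3 days (F3 rats), and their age is not given in the sources used here. CECs were freshly isolated by magnetic sorting, with removal of CD11b-positive cells followed by retention of CD31-positive cells, and each sample came from the pooled tissue of several rats. Each group had 3 samples from independent experiments, named i, j and k, and reads were summed over the 4 technical replicates of each sample. The question was whether transcripts of the autophagy machinery rise in the brain endothelium when food is withdrawn.

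Autophagy encloses part of the cytoplasm in a double membrane, the autophagosome, which then fuses with the lysosome so that its content is degraded and its building blocks are reused. It is switched on by nutrient shortage, largely through changes in the activity of proteins already present. The initiation complex is phosphorylated by the kinases mTORC1, which inhibits it when nutrients are plentiful, and AMPK, which can activate it. Transcription factors such as TFEB and FOXO3 also take part. In endothelial cells autophagy is known to take part in lipid handling, in the response to shear stress and in the removal of damaged mitochondria. The products of the 10 genes act in sequence, from initiation (ATG13) and the lipid kinase complex (Beclin 1, AMBRA1) through membrane delivery (ATG9A) to the conjugation of ATG12 to ATG5 (ATG7, ATG12, ATG5, ATG16L1) and the attachment of ATG8 proteins to the membrane (ATG3, ATG4B).

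The libraries held 20718644 to 25960874 assigned reads, and each core autophagy gene had 486 to 3669 of them in a sample. Normalized counts are given below, that is counts scaled to the mean library size after TMM correction. They are not divided by transcript length, so levels are compared between groups and not between genes. The sorted cells carried the endothelial transcripts Pecam1 (CD31), Slc2a1, Abcb1a and Bsg at high levels in every sample. The microglial list had 6 of 7 markers with an identifier, and their summed level was 61.7 to 96.7 normalized counts in AL CECs and 56.7 to 134 in fasted rats. The 2 of 6 pericyte markers that could be measured, Abcc9 and Anpep, summed to 1762 to 4161 in AL CECs, 1846 to 2098 in F1 CECs, 2186 to 4509 in F2 CECs and 1473 to 4143 in F3 CECs. The astrocyte marker Aldoc, 1 of 5 listed, was at 1825 to 2155 in AL CECs and lower in each F3 sample, at 1545 to 1588, with 1530 to 2277 in F1 and F2 CECs. The smooth muscle marker Acta2, 1 of 3 listed, was at 130 to 211 in AL CECs and higher in each F2 sample, at 236 to 366, with 126 to 300 in F1 and F3 CECs. The part of these markers in the results below was not tested. No marker of neurons or oligodendrocytes was measured here. In sorted bulk samples, fewer cells of a type and less RNA per cell cannot be told apart.

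None of the 10 core autophagy genes rose or fell past the threshold of the edgeR test on any day of fasting. The count was 0 of 10 in F1 CECs, where 6.56% of all genes tested were called, 0 of 10 in F2 CECs, where 0.858% were called, and 0 of 10 in F3 CECs, where 12.05% were called (edgeR quasi-likelihood test, Benjamini-Hochberg adjusted p at most 0.05). With 10 genes, a count of 0 calls is near the background on each day and does not set these genes apart. At an unadjusted p under 0.05 the numbers were 1 of 10 in F1 CECs (Atg12), 0 of 10 in F2 CECs and 2 of 10 in F3 CECs (Atg12 and Atg3), against 20.6%, 12.8% and 25.96% of all genes. DESeq2, the package used in the paper, was run on the same genes. It called 1 of 10 in F1 CECs (Atg12), 0 in F2 and 0 in F3 CECs, against 9.51%, 2.75% and 14.4% of all genes. The joint test of the 4 groups called 0 of 10 with edgeR, where 10.1% of all genes were called, and 0 of 10 with DESeq2, where the share was 16.02%. At an unadjusted p under 0.05 the joint edgeR test had 1 of 10 (Atg12), beside 24.8% of all genes. The 3 comparisons share the AL samples and are not independent of each other.

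The fitted changes were small as well as uncalled. The median log2 fold change (LFC) of the 10 genes against AL was 0.04 in F1 CECs, 0.03 in F2 CECs and 0.04 in F3 CECs, beside -0.0043, -0.0085 and -0.0053 over all genes tested. The sign of these medians depended on the scaling. With total counts they were -0.0226, -0.0044 and -0.0073, beside -0.0651, -0.0449 and -0.0515 over all genes. They thus stayed slightly above the medians of all genes under both scalings. Leaving out 1 sample gave values down to -0.0140 in F1 CECs and -0.0024 in F3 CECs. The median size of the change, without its sign, was 0.07, 0.05 and 0.06 for these genes, beside 0.16, 0.13 and 0.18 for all genes. Of all genes tested, 40.8% in F1 CECs, 38.5% in F2 CECs and 45.4% in F3 CECs had a fitted change larger than that of the core autophagy gene that moved most. The 10 genes lay between percentiles 55.1 and 89.4 of abundance among all genes tested. The values over all genes are not matched for abundance or precision, so they do not show that these genes were unusually stable. The standard errors of the 10 genes against AL ranged from 0.06 to 0.10. Their medians of 0.07 stood below the medians of 0.13 over all genes. All 30 intervals (95%, 10 genes on 3 days) lay between an LFC of -0.39 and 0.34. A rise above 26.4%, or a fall beyond 23.6%, was therefore outside the interval of each of the 10 genes on each day. Of the 30 intervals, 3 did not include 0, those of Atg12 in F1 and F3 rats and that of Atg3 in F3 CECs.

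**Figure D1:**
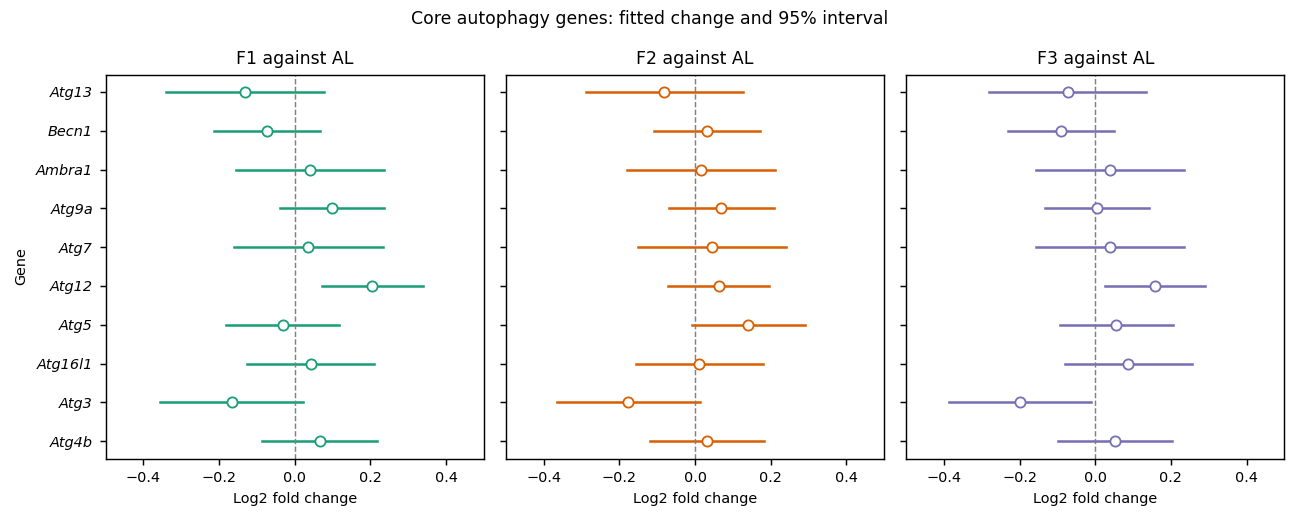
Fitted log2 fold change against AL (horizontal axis) of the 10 core autophagy genes (vertical axis) in F1, F2 and F3 rats, with bars for the 95% interval and open circles for changes that did not pass the threshold. All 30 circles are open, and the bars stay between -0.39 and 0.34.

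**Figure D2:**
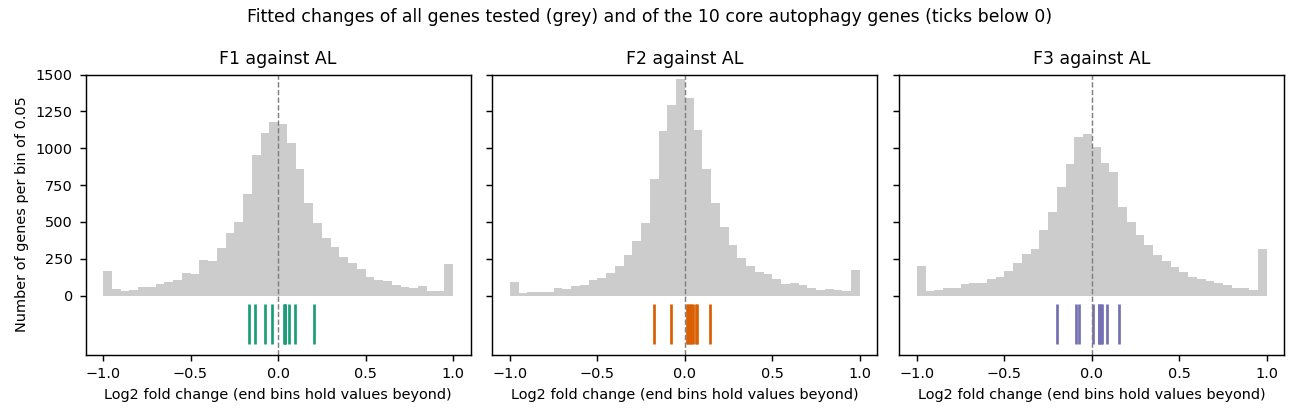
Number of genes (vertical axis) per bin of fitted log2 fold change against AL (horizontal axis) for the 13050 genes tested, in grey, with the 10 core autophagy genes as ticks under the axis. The ticks lie near 0 on each day, between -0.20 and 0.20, inside the broad centre of the grey distribution.

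At initiation, Atg13 (ENSRNOG00000016984), which encodes the subunit that links the ULK kinase to its scaffold, did not pass the threshold. Its normalized counts were 921, 957 and 1031 in AL CECs, 870, 821 and 964 in F1 CECs, 939, 781 and 1029 in F2 CECs, and 916, 937 and 913 in F3 CECs. The groups overlapped throughout, and the F2 samples alone covered most of the range of all 12. The LFC was -0.13 ± 0.10 (SE) in F1 CECs, -0.08 ± 0.10 in F2 CECs and -0.07 ± 0.10 in F3 CECs.

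In the Beclin 1 complex, which makes the phosphatidylinositol 3-phosphate that marks the site of autophagosome formation, neither core gene passed the threshold. Becn1 (ENSRNOG00000020513), which encodes Beclin 1 itself, had 3263, 3343 and 3269 normalized counts in AL CECs, 3092, 3145 and 3153 in F1 CECs, 3222, 3635 and 3244 in F2 CECs, and 3150, 2984 and 3137 in F3 CECs. Every F1 and every F3 sample lay below every AL sample, although by little, and F2 sample j was the highest of all. Over all genes tested, the groups did not overlap for 28.7% in F1 CECs and 35.6% in F3 CECs. The LFC of Becn1 was -0.07 ± 0.07 in F1 CECs, 0.03 ± 0.07 in F2 CECs and -0.09 ± 0.07 in F3 CECs. Ambra1 (ENSRNOG00000017422), which encodes a Beclin 1 partner that also controls ubiquitin ligases, averaged 1503 ± 64.7 (SD, n = 3) in AL CECs, 1547 ± 166 in F1 CECs, 1520 ± 166 in F2 CECs and 1544 ± 45.7 in F3 CECs. Its group means differed by less than the spread within the F1 or the F2 samples.

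Atg9a (ENSRNOG00000018975) encodes the membrane protein, a lipid scramblase, whose vesicles seed the growing membrane. Its normalized counts averaged 3249 ± 160 (SD, n = 3) in AL CECs, 3479 ± 90.95 in F1 CECs, 3410 ± 16.5 in F2 CECs and 3260 ± 151 in F3 CECs. The order of means was F1, F2, F3 and AL, with F3 and AL nearly equal. The LFC was 0.10 ± 0.06 in F1 CECs, 0.07 ± 0.06 in F2 CECs and 0.0045 ± 0.06 in F3 CECs, and none passed the threshold.

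The 4 genes of ATG12 conjugation included the largest rise among the core genes and also some of the flattest profiles. Atg12 (ENSRNOG00000000157) encodes the ubiquitin-like protein that is joined to ATG5. It had 1147, 1233 and 1182 normalized counts in AL CECs, 1322, 1390 and 1393 in F1 CECs, 1222, 1267 and 1229 in F2 CECs, and 1342, 1354 and 1277 in F3 CECs. Every F1 and every F3 sample was above every AL sample, while the F2 samples overlapped with those of AL rats. Groups did not overlap for 28.7% of all genes between F1 and AL and for 35.6% between F3 and AL. The LFC was 0.20 (95% interval 0.07 to 0.34) in F1 CECs, 0.06 (-0.07 to 0.20) in F2 CECs and 0.16 (0.02 to 0.29) in F3 CECs. The adjusted p of the edgeR quasi-likelihood test was 0.0663 in F1 CECs, 0.726 in F2 CECs and 0.122 in F3 CECs, and that of the joint test was 0.124. The call in F1 CECs depended on the processing. With DESeq2 the adjusted p was 0.0283 at an LFC of 0.20, with a filter of 10 reads per sample in edgeR it was 0.0479, and when F2 sample j was left out it was 0.0278, within a range of 0.0278 to 0.210 over all alternatives. Under each alternative the LFC was positive, from 0.14 to 0.23.

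The profile of Atg12 was highest on days 1 and 3 and nearer to AL on day 2. Between F1 and F2 rats it differed by an LFC of -0.14 (-0.28 to -0.0099), an uncalled difference (adjusted p = 0.252, edgeR quasi-likelihood test), and between F2 and F3 rats by 0.10 (-0.04 to 0.23, adjusted p = 0.393, edgeR quasi-likelihood test). Its F2 samples lay below all F1 and all F3 samples. Such a lack of overlap was found for 21.8% of all genes between F2 and F1 and for 26.8% between F3 and F2. Among 1263 other genes with a symbol and a mean of at least 100 normalized counts, those with the most similar log2 CPM over the 12 samples were Agtrap (Pearson's r = 0.95), Brat1 (r = 0.93) and Bet1l (r = 0.91). These correlations are descriptions over 12 samples that share their libraries and groups. The candidates were mostly genes early in the alphabet. The 3 genes were picked by likeness to Atg12 over the same samples, group differences included, so their changes are no separate evidence for its profile. In F1 and F3 CECs the LFC was 0.36 and 0.38 for Agtrap, which encodes a protein that binds the angiotensin II type 1 receptor. It was 0.34 and 0.23 for Brat1 and 0.34 and 0.30 for Bet1l.

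Atg5 (ENSRNOG00000000322), which encodes the acceptor of ATG12, was highest in F2 CECs. Its normalized counts were 998, 1063 and 1007 in AL CECs, 982, 1057 and 963 in F1 CECs, 1099, 1202 and 1082 in F2 CECs, and 1087, 1077 and 1025 in F3 CECs. The F2 samples were above all AL and all F1 samples, while the F3 samples overlapped with both. Non-overlap was met by 15.5% of all genes for F2 against AL and by 21.8% for F2 against F1. The LFC was -0.03 (-0.18 to 0.12) in F1 CECs, 0.14 (-0.0091 to 0.29) in F2 CECs and 0.06 (-0.09 to 0.21) in F3 CECs. For F2 against F1 it was 0.17 (0.02 to 0.32) with an adjusted p of 0.222 in the edgeR quasi-likelihood test. Atg12 and Atg5, whose products form 1 conjugate, thus had their highest means on different days, although neither differed past the threshold between fasting days.

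Atg7 and Atg16l1 varied little. Atg7 (ENSRNOG00000007486), which encodes the E1-like enzyme that activates both ATG12 and the ATG8 proteins, averaged 565 ± 30.1 (SD, n = 3) in AL CECs, 579 ± 57.4 in F1 CECs, 583 ± 34.4 in F2 CECs and 580 ± 40.2 in F3 CECs. Its LFC was 0.04 ± 0.09, 0.05 ± 0.09 and 0.04 ± 0.09 on the 3 days. Atg16l1 (ENSRNOG00000017913), which encodes the protein that brings the conjugate to the membrane, averaged 957 ± 31.2 in AL CECs, 986 ± 60.0 in F1 CECs, 965 ± 69.6 in F2 CECs and 1017 ± 61.7 in F3 CECs. The largest LFC of Atg16l1 was 0.09 ± 0.08, in F3 CECs.

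In ATG8 lipidation, Atg3 (ENSRNOG00000002094), which encodes the E2-like enzyme that attaches ATG8 proteins to phosphatidylethanolamine, was lower in fasted rats, without passing the threshold. It had 981, 887 and 1037 normalized counts in AL CECs, 839, 924 and 824 in F1 CECs, 785, 949 and 835 in F2 CECs, and 865, 804 and 861 in F3 CECs. Every F3 sample was below every AL sample, whereas sample j of F1 and of F2 rats exceeded AL sample j. Between F3 and AL, groups did not overlap for 35.6% of all genes. The LFC was -0.17 (-0.36 to 0.02) in F1 CECs, -0.18 (-0.37 to 0.01) in F2 CECs and -0.20 (-0.39 to -0.01) in F3 CECs. The adjusted p values of the edgeR quasi-likelihood test were 0.308, 0.428 and 0.169. Atg4b (ENSRNOG00000018403), which encodes the protease that primes ATG8 proteins and releases them from the membrane, averaged 1050 ± 51.0 (SD, n = 3) in AL CECs, 1098 ± 4.09 in F1 CECs, 1072 ± 79.7 in F2 CECs and 1088 ± 21.8 in F3 CECs. The 3 F1 samples of Atg4b were all above the AL samples, by an LFC of only 0.07 ± 0.07. Non-overlap between F1 and AL was met by 28.7% of all genes.

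**Figure D3:**
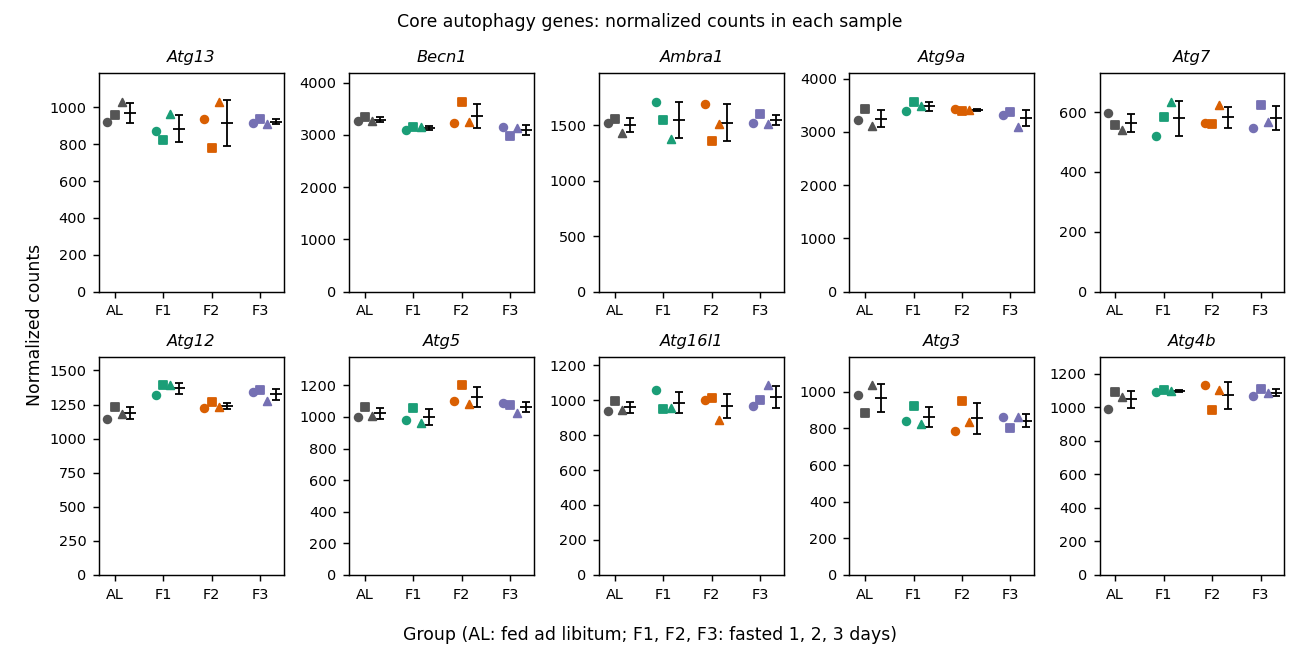
Normalized counts (vertical axis, from 0) of the 10 core autophagy genes in each sample of AL, F1, F2 and F3 rats (horizontal axis), with circles, squares and triangles for samples i, j and k and a black mark with a bar for the mean ± SD of 3 samples. The groups lie close together in each panel, and the highest sample of a gene is at most 1.32 times its lowest.

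The core genes also did not differ past the threshold between fasting days. The count was 0 of 10 for F2 against F1, where 1.43% of all genes were called, 0 of 10 for F3 against F2, where 5.94% were called, and 0 of 10 for F3 against F1, where 0% were called. With 10 genes, these counts too are near the background. At an unadjusted p under 0.05 there were 2 of 10 for F2 against F1 (Atg12 and Atg5), 0 for F3 against F2 and 0 for F3 against F1, beside 17.3%, 22.00% and 4.44% of all genes. DESeq2 called 0 of 10 in each of the 3, beside 4.72%, 9.52% and 0.184% of all genes. The neighbours in the order of group means therefore did not differ past the threshold for any of the 10 genes. Per sample, the median log2 deviation of the 10 genes from their AL means was 0.0040 ± 0.0411 (SD, n = 3) in AL CECs, 0.0125 ± 0.0272 in F1 CECs, 0.0454 ± 0.0170 in F2 CECs and 0.0296 ± 0.0346 in F3 CECs. The differences between these group means were of the size of the spread among the AL samples.

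Upstream sequence is shown for Atg3 and Atg5, the core genes in which the motif searched below was found, and for Atg14, the other autophagy gene described below that rose. These are the 100 bases before the annotated start of each gene in the RefSeq annotation of GRCr8, matched by symbol, 5′ to 3′ on the strand of the gene. Capitals mark CACGTG, the E-box core bound by TFEB among other factors.
Atg3, chr11:69159281-69159380, minus strand: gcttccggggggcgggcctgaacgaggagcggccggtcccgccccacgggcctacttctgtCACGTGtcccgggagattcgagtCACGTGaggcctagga
Atg5, chr20:49380735-49380834, plus strand: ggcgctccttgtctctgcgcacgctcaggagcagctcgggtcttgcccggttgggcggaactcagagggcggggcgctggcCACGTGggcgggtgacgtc
Atg14, chr15:23306816-23306915, minus strand: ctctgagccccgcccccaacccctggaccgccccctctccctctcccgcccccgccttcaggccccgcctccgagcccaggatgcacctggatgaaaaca
The motifs of Atg3 began 39 and 16 bases before the start and that of Atg5 began 19 bases before it. In windows of 300 bases (250 before and 50 after the start) searched on both strands, CACGTG was found in 2 of the 8 core genes with an entry, Atg3 and Atg5, and in 6.42% of 33469 promoters. GTAAACA, a core bound by forkhead factors, was in 0 of 8 and in 3.78% of promoters, and AGGTCA, a core bound by nuclear receptors, was in 0 of 8 and in 16.2%. These motifs do not overlap each other in the sequences shown, and a match describes letters only.

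Beyond the core genes, 13 of 49 other autophagy genes had an identifier, and 3 of these 13 were called in F3 CECs, where 12.05% of all genes were called. Atg14 rose, and Atg4c and Bcl2l13 fell. In F1 CECs 1 of 13 was called, Bcl2l13, which fell, where 6.56% of all genes were called, and in F2 CECs 0 of 13, where 0.858% were. At an unadjusted p under 0.05 there were 3 of 13 in F1, 2 in F2 (Atg2a and Bnip3) and 4 in F3 CECs, beside 20.6%, 12.8% and 25.96% of all genes. The median LFC of the 13 genes was 0.04, -0.0002 and 0.03 on the 3 days. The other 36, Ulk1, Map1lc3b and Sqstm1 among them, were not analysed here, so these counts cover part of the pathway, mostly genes early in the alphabet.

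Atg14 (ENSRNOG00000011873) encodes the subunit that directs the Beclin 1 lipid kinase complex to the site of autophagosome formation. It had 362, 384 and 376 normalized counts in AL CECs, 417, 448 and 436 in F1 CECs, 349, 389 and 337 in F2 CECs, and 464, 554 and 464 in F3 CECs. Every F1 and every F3 sample was above every AL sample, and the F2 samples overlapped with AL. Non-overlap with AL was met by 28.7% of all genes in F1 CECs and by 35.6% in F3 CECs. The LFC was 0.40 ± 0.09 (SE) in F3 CECs (adjusted p = 0.0133, edgeR quasi-likelihood test), a rise of 32.1%. It was 0.21 ± 0.09 in F1 CECs (adjusted p = 0.215) and -0.06 ± 0.09 in F2 CECs (adjusted p = 0.834), both by the same edgeR test. F3 sample j was the highest, and without it the LFC in F3 CECs was 0.31 with an adjusted p of 0.0630, the highest over the alternatives (lowest 0.0025). The partners of ATG14 among the core genes, Becn1 and Ambra1, had an LFC of -0.09 and 0.04 in the same rats.

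Atg4c (ENSRNOG00000008767), which encodes another protease of the ATG4 family, had 175, 150 and 180 normalized counts in AL CECs and 102, 135 and 101 in F3 CECs. Its F3 samples were all below the AL samples, and 35.6% of all genes had no overlap between F3 and AL. The LFC in F3 CECs was -0.58 ± 0.16 (adjusted p = 0.0342, edgeR quasi-likelihood test). The call was lost when AL sample i or k or F3 sample i or k was left out, with LFCs of -0.54 to -0.50 and adjusted p values up to 0.138 (lowest over the alternatives 0.0149). The related core gene Atg4b had an LFC of 0.05 in the same rats, and Atg4a and Atg4d had -0.03 and 0.03.

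Bcl2l13 (ENSRNOG00000012394), which encodes a mitophagy receptor of the outer mitochondrial membrane, had 574, 646 and 546 normalized counts in AL CECs, 487, 444 and 504 in F1 CECs, 541, 555 and 573 in F2 CECs, and 466, 494 and 487 in F3 CECs. Every F1 and every F3 sample was below every AL sample, and the F2 samples overlapped with AL and lay above all F1 and F3 samples. Over all genes, groups did not overlap for 28.7% between F1 and AL and for 35.6% between F3 and AL. The shares were 21.8% between F2 and F1 and 26.8% between F3 and F2. The LFC was -0.30 ± 0.08 in F1 CECs (adjusted p = 0.04985, edgeR quasi-likelihood test) and -0.29 ± 0.08 in F3 CECs (adjusted p = 0.0397). These calls stood at the threshold. In F1 rats the call was lost when any 1 of 11 of the 12 samples was left out (LFC -0.35 to -0.23, adjusted p over the alternatives 0.0223 to 0.210). In F3 rats it was lost without AL sample i or j, F1 sample i or any 1 of the F3 samples (LFC -0.31 to -0.22, adjusted p over the alternatives 0.0203 to 0.157). The other mitophagy receptors measured did not pass the threshold. The LFC of Bnip3 was 0.26 ± 0.10, 0.30 ± 0.10 and 0.14 ± 0.10 on the 3 days, and that of Bnip3l was -0.10 ± 0.06, -0.0002 ± 0.06 and -0.15 ± 0.06.

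**Figure D4:**
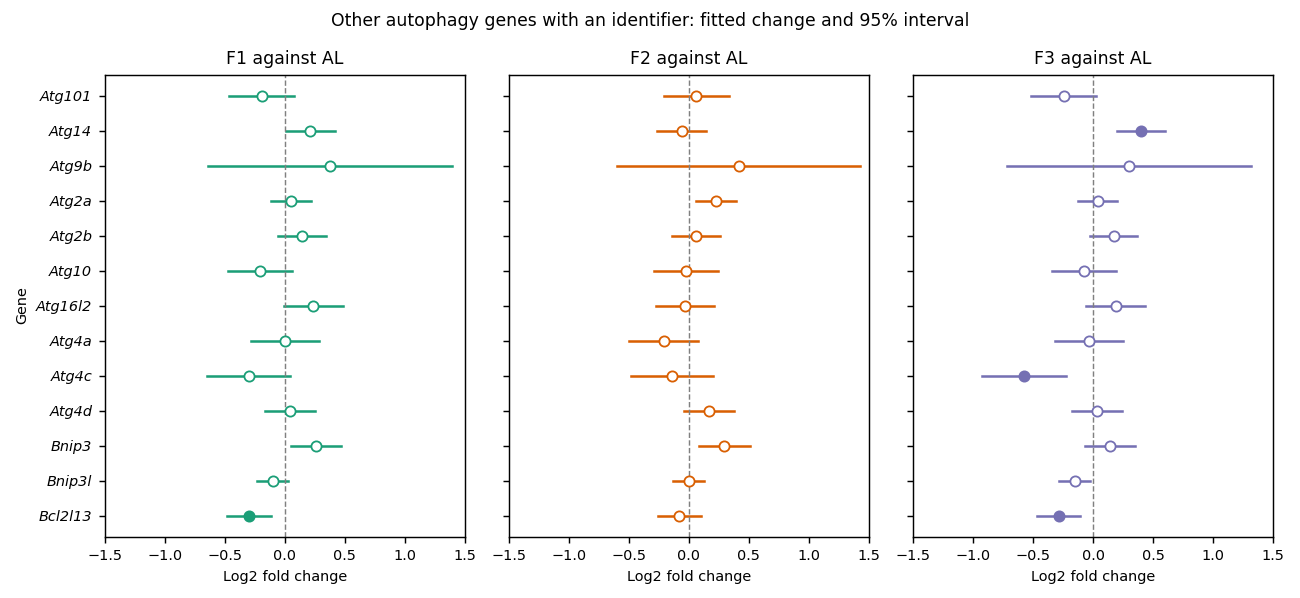
Fitted log2 fold change against AL (horizontal axis) of the 13 other autophagy genes with an identifier (vertical axis) in F1, F2 and F3 rats, with bars for the 95% interval and filled circles for changes that passed the threshold. Filled circles stand for Bcl2l13 in F1 CECs and for Atg14, Atg4c and Bcl2l13 in F3 CECs.

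Genes acting after and upstream of the autophagosome were tested as far as they had an identifier. Of the lysosomal genes, 6 of 16 were tested (Acp2, Aga, Arsa, Arsb, Asah1 and Atp13a2), and 0 were called and 0 had an unadjusted p under 0.05 on any day against AL. Their median LFC was -0.03, -0.01 and -0.04. The list of nutrient signalling also held Bcl2 and Bcl2l1, which belong to the BCL2 family of cell death. Of its 22 genes, 5 were tested (Akt1s1, Atf4, Bcl2, Bcl2l1 and Camkk2) and 0 were called. At an unadjusted p under 0.05 there were 1, 0 and 2 on days 1, 2 and 3. These were Bcl2 in F1 CECs and Bcl2 and Bcl2l1 in F3 CECs, and none was Akt1s1, Atf4 or Camkk2. Over all genes, 6.56%, 0.858% and 12.05% were called and 20.6%, 12.8% and 25.96% had an unadjusted p under 0.05, so that with 5 or 6 genes a count of 0 calls is near the background. The largest change among these was that of Bcl2, which encodes an anti-apoptotic protein that binds Beclin 1, with an LFC of 0.51 ± 0.20 in F1 CECs and 0.56 ± 0.20 in F3 CECs (adjusted p = 0.160 and 0.0875, edgeR quasi-likelihood test).

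The same libraries recorded fasting in other genes. Slc16a1 and Angptl4 are shown because the paper reports their rise in these same data, so their calls were known in advance. Slc16a1, which encodes the monocarboxylate transporter MCT1, had 11620 to 16911 normalized counts in AL CECs and 17968 to 24227, 31256 to 36341 and 22422 to 25556 in F1, F2 and F3 rats, with an LFC of 0.56, 1.26 and 0.79 (adjusted p = 0.0276, 0.0020 and 0.0022, edgeR quasi-likelihood test). Angptl4, which encodes a lipoprotein lipase inhibitor induced by fatty acids, had 9118 to 11616 in AL CECs, 14328 to 16578 in F1 CECs, 11789 to 12243 in F2 CECs and 14854 to 16990 in F3 CECs. Its LFC was 0.49, 0.15 and 0.58 (adjusted p = 0.0114, 0.558 and 0.0021, edgeR quasi-likelihood test). The 95% interval of Slc16a1 in F2 CECs, 0.97 to 1.56, lay wholly above the highest bound of any core autophagy gene, 0.34. Its call in F2 CECs was lost when only the samples compared were fitted (LFC 1.26, adjusted p = 0.0617, edgeR). The endothelial marker Slc2a1 was also higher in each fasted sample, at 355198 to 416026 normalized counts against 257320 to 309123 in AL CECs, while Cav1 was lower, at 8555 to 12418 against 13637 to 15807. The 7 of 11 endothelial markers measured summed to 578204 to 626036 in AL CECs and to 676432 to 741981 in fasted ones. Without Slc2a1 the other 6 summed to 308790 to 320883 in AL CECs and to 304331 to 340683, 321234 to 359723 and 303229 to 310142 in F1, F2 and F3 CECs. Most of this sum was Bsg and Abcb1a, at means of 168586 and 75132 over all samples. Car4 was lower in each F1 and F3 sample, at 5320 to 6072 and 4536 to 5752 against 7056 to 8311 in AL CECs. Pecam1 was higher in each F1 sample, at 35876 to 38791 against 31655 to 35586. Abcg2 was higher in each F2 sample, at 24113 to 32371 against 18969 to 23659. Non-overlap with AL was met by 28.7%, 15.5% and 35.6% of all genes in F1, F2 and F3 CECs. The part of these markers in the results on autophagy genes was not tested.

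**Figure D5:**
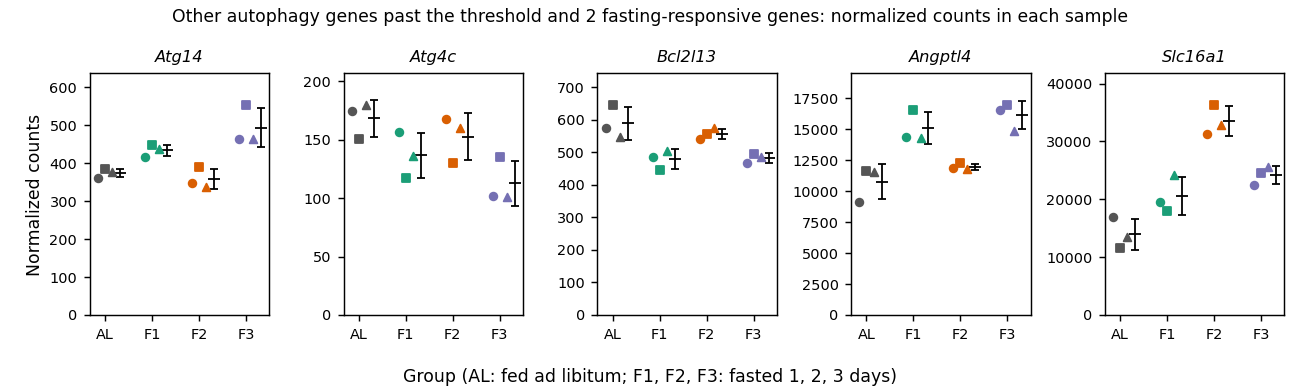
Normalized counts (vertical axis, from 0) of Atg14, Atg4c, Bcl2l13, Angptl4 and Slc16a1 in each sample of AL, F1, F2 and F3 rats (horizontal axis), with circles, squares and triangles for samples i, j and k and a black mark with a bar for the mean ± SD of 3 samples. Atg14 and Angptl4 are highest in F3 CECs, Slc16a1 is highest in F2 CECs, and Atg4c is lowest in F3 CECs.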

How the data were processed

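The authors trimmed and filtered single-end reads from strand-specific polyadenylated RNA libraries, ran STAR against the Ensembl 91 rat genome (Rnor_6.0 per the submitters' processing notes), dropped multi-mapping reads, and counted exon reads per gene with HTSeq-count 0.5.3. The deposited values are these raw counts. The strand setting of the counting is not given in the sources used here, so reads of genes that overlap on opposite strands may be mixed.

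Counts were summed over 4 technical replicates per sample, giving 12 samples (48 files). Technical replicate d of F1 sample k has a title and a treatment label that conflict and was grouped by its title. Between technical replicates, chi-square per degree of freedom was 1.00 to 1.02 over genes with at least 20 reads. Between samples of a group it was 9.75 to 51.5 (1.82 to 12.0 for the 10 core genes), so no sample repeated another. The highest values were those of F2 sample j, at 48.8 with F2 sample i and 51.5 with F2 sample k (12.0 and 10.7 for the core genes). Between F2 samples i and k it was 11.5 (2.82). Without F2 sample j the LFC in F2 CECs was 0.09 for Atg5 and -0.26 for Atg3, beside 0.14 and -0.18 with all samples. Counts vary by sampling at this depth, and intervals cover the spread between samples.

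Genes with at least 1 read in each sample entered edgeR 4.0.16 in R 4.3.3 and its quasi-likelihood test (robust estimation of the spread) after TMM scaling, in 1 model of 4 groups, with Benjamini-Hochberg adjustment over 13050 genes and a threshold of 0.05. Standard errors are the LFC divided by the square root of F, and 95% intervals use the t distribution with the model's degrees of freedom. The test was tried on simulated data with set changes larger than any fitted for the core genes. That trial does not bear on changes of their size. For normalized counts, each library was set to the mean of the TMM-corrected library sizes, and log2 CPM used a prior count of 2. Alternatives were DESeq2 1.42.0 (Wald test, and a likelihood ratio test for the 4 groups), other scalings and filters, only the samples compared, a replicate block, and each sample or the conflicting technical replicate left out. A fit without robust estimation, and all alternatives for genes other than the 10, were added after seeing the data.

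Symbols came from the supplementary tables, which pair 2043 of the genes tested with one, mostly genes early in the alphabet. The genes named are the 10 core genes, genes of the autophagy, lysosome and nutrient signalling lists called against AL, Angptl4, Slc16a1, and the 3 genes most correlated with the core gene of smallest joint p (Atg12). Other genes are named as examples after their values were seen. The members and lists were chosen with earlier results of these data known.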

Additional observations from a re-analysis of the deposited data

Results flagged for a closer look

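None of the 10 core autophagy genes differed between fasting days past the threshold. Among the other genes named, 3 did in a direct test between days, by edgeR's quasi-likelihood test. Atg14 was higher in F3 than in F2 rats by an LFC of 0.46 ± 0.09 (SE, adjusted p = 0.0143), and the call was lost under 2 of 23 alternatives, when only the samples compared were fitted (adjusted p = 0.0658, edgeR) and without F3 sample j (LFC 0.37, adjusted p = 0.0541). Angptl4 was higher in F3 than in F2 rats by 0.43 ± 0.10 (adjusted p = 0.0249, edgeR). This call was lost without F2 sample i or k or F3 sample i or j, with LFCs of 0.39 to 0.43 and edgeR adjusted p values of 0.0537 to 0.101. For Slc16a1, F2 rats exceeded F1 rats by 0.70 ± 0.14 (adjusted p = 0.0300, edgeR). This call was lost when only the samples compared were fitted (LFC 0.70, adjusted p = 0.0506) and without F1 sample i or j or F2 sample j or k, with LFCs of 0.61 to 0.72 and edgeR adjusted p values up to 0.166. With 3 samples per group, no sample was tested as an outlier.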

How the results depend on the processing

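Values were recomputed under 23 alternatives, or 22 for the joint test, to which a fit of only the samples compared does not apply. The count of core genes called was 0 under all those run for F2 and F3 against AL, for the 3 comparisons between days and for the joint test. For F1 against AL it became 1 (Atg12) with at least 10 reads in each sample, with DESeq2, and without F2 replicate j (range 0 to 1 with 1 sample left out). The median LFC of the 10 genes changed sign with total counts, to -0.0226 in F1, -0.0044 in F2 and -0.0073 in F3 rats, where this scaling moved the median of all genes to -0.0651, -0.0449 and -0.0515 on the 3 days. With 1 sample left out, that median ranged from -0.0140 to 0.0453 in F1 rats and from -0.0024 to 0.0550 in F3 rats. Of 690 recomputed LFCs of the core genes, 660 kept their direction and side of the threshold, 27 changed sign and 3 were newly called (Atg12). After the change of sign none was above 0.0674 in size. The main LFC could be larger, as for Atg13 in F2 rats (-0.0811). With total counts the LFC turned to -0.0024 for Becn1 in F2 rats, to -0.0200, -0.0222 and -0.0072 for Ambra1 on the 3 days, to -0.0406 for Atg9a in F3 rats, to -0.0253 and -0.0075 for Atg7 in F1 and F3 rats, to -0.0181 and -0.0243 for Atg16l1 in F1 and F2 rats, and to -0.0063 for Atg4b in F2 rats. With 1 sample left out, the LFC in F1 rats ranged from -0.0383 to 0.1167 for Ambra1, from -0.0354 to 0.1076 for Atg7 and from -0.0095 to 0.0702 for Atg16l1. In F2 rats it ranged from -0.1728 to 0.0223 for Atg13, from -0.0260 to 0.0635 for Becn1, from -0.0674 to 0.0904 for Ambra1, from -0.0047 to 0.0932 for Atg7, from -0.0245 to 0.0699 for Atg16l1 and from -0.0106 to 0.0904 for Atg4b. In F3 rats it ranged from -0.0216 to 0.0497 for Atg9a and from -0.0184 to 0.0941 for Atg7. Apart from the scaling and the samples left out, the cause of these shifts was not tested.

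The sample letter as a replicate block left 0 core genes called in each comparison, with an LFC of Atg12 in F1 rats of 0.21 (adjusted p = 0.0796, edgeR). The letters were not taken as pairs, since no source used here says that a letter marks a shared animal, batch or day and since only 2 of 18 same-letter correlations of deviations from group means were above 0.1 (-0.0172 to 0.139, with 15 of 18 above 0, beside -0.193 to 0.204 for other letters). That 9 of 12 samples correlated best with their own letter is a hint from the data, not from the design. The paper describes independent experiments but does not say whether each held all groups, so a pairing by letter remains possible. Under the replicate block, Bcl2l13 lost its calls (adjusted p = 0.0738 in F1 and 0.0576 in F3 rats, edgeR). Bcl2l13 in F1 rats lost its call under 16 and in F3 rats under 8 of the 23 alternatives, and Slc16a1 in F1 rats under 6 (4 of them without AL replicate j or k or F1 replicate i or k, at LFCs of 0.42 to 0.59) and in F2 rats under 1. Without F1 replicate j the LFC of Angptl4 in F1 rats was 0.42 (adjusted p = 0.0692, edgeR).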

Other observations

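Over the 12 samples, the 45 pairs of core autophagy genes had a median Pearson's r of -0.0609 between their log2 CPM, from -0.704 (Atg3 and Atg4b) to 0.559 (Becn1 and Atg5), and 4 pairs were above 0.5 and 3 below -0.5. The 12 points of each pair share libraries, depth and groups, and the values are given as a description.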
